A study of Mus musculus with 8 samples.

Results

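Transcripts of the integrated stress response were read out in white quadriceps, a fast glycolytic part of the thigh muscle, of mice with and without the mitochondrial thioesterase gene Acot2 in muscle. The set holds 10 genes: the transcription factor genes Atf4, Atf5 and Ddit3, the feedback genes Trib3 and Ppp1r15a, the amino acid synthesis genes Asns, Psat1 and Phgdh, and the mitochondrial folate genes Mthfd2 and Aldh1l2. They were taken by symbol, and each matched 1 of the 54091 gene rows. The Acot2 muscle knockout group (knockouts 5 to 8, n = 4) carried Cre under the muscle creatine kinase (CKM) promoter, which drives deletion in muscle fibres and leaves other cells of the tissue intact. The floxed control group (floxed controls 1 to 4, n = 4) was homozygous for the loxP allele; mice with Cre and no loxP allele were not analysed here, so Cre and the loss of Acot2 cannot be told apart. All 8 mice were males of 11 to 14 weeks, fasted for 14 h overnight and sampled in the morning. Each library is labelled with its own mouse number, and p-values rest on the spread between these mice.

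The integrated stress response is a shared answer of cells to amino acid shortage, misfolded protein, haem loss, double-stranded RNA and mitochondrial faults. Each of 4 kinases senses such a stress and phosphorylates the initiation factor eIF2, which slows translation in general while translation of the Atf4 message goes up. The ATF4 protein then switches on genes for amino acid uptake and synthesis, serine and mitochondrial folate metabolism, and the phosphatase subunit that ends the response. In skeletal muscle with faulty mitochondria this program is known for raising serine and mitochondrial folate enzymes and the secreted factors FGF21 and GDF15. Because ATF4 is controlled largely by translation, the count of its transcript is no measure of its protein.

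ATF4 binds a composite element whose core reads TGATGNAA, and its family also binds the palindrome TGACGTCA. Promoter windows of RefSeq (GRCm38.p6, 300 bases, from 250 before the annotated start to 50 after it) were matched for 9 of the 10 genes, in 11 windows. The core was found on either strand in 2 of these 11 windows, those of Asns and Trib3, against 3.97% of all 32851 mouse windows. The palindrome was found in 1, that of Ppp1r15a, against 1.79% of all windows, and the endoplasmic reticulum stress element ERSE in 0, against 0.119%. The 3 windows with a match are printed 5′ to 3′ on the gene's own strand, with the match in capitals, because they hold the letters that tie these genes to the pathway by sequence. In Asns (chr6:7693160-7693459, minus strand) the core starts 23 bases before the annotated start. In Trib3 (chr2:152344011-152344310, minus strand) it lies after the start and on the opposite strand, so it reads TTACATCA. In Ppp1r15a (chr7:45526219-45526518, minus strand) the palindrome starts 12 bases before the start.
Asns: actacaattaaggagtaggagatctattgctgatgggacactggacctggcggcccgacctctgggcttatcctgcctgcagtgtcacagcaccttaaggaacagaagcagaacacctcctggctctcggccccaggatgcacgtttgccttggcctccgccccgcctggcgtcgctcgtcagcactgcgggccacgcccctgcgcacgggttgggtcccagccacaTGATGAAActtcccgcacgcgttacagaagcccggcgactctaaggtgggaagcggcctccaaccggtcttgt
Trib3: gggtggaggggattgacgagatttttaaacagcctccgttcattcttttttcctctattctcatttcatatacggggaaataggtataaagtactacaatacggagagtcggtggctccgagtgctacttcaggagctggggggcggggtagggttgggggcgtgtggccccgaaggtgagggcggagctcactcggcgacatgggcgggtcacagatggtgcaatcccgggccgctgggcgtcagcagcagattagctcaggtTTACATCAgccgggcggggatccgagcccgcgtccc
Ppp1r15a: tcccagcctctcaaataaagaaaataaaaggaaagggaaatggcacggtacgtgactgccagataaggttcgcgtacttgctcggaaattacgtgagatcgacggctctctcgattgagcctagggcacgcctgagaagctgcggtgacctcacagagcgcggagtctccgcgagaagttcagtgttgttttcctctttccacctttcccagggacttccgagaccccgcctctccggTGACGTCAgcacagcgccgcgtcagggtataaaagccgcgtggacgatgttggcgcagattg
A match is a run of letters and not a shown binding site.

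Levels are given as normalized counts, which the authors scaled by a size factor for each library. A difference is the knockout mean less the floxed control mean of log2(normalized count + 1), and its standard error (SE) comes from limma fitted to all tested genes. That fit draws each gene's spread between mice towards that of other genes of similar level, and the SE and p follow the drawn value. Reads on genes numbered 28659633 to 38612914 in knockouts and 32282222 to 40977866 in floxed controls. The targeted gene Acot2 (gene ID 171210) averaged 467 ± 130 normalized counts in knockouts and 2406 ± 1099 in floxed controls (SD, n = 4 each), with all 4 knockouts below every floxed control (difference -2.30, SE 0.287, limma adjusted p = 0.087). Parts of the Acot2 transcript are at least 90% identical to those of 4 other genes, Acot1 among them, so some reads may be shared. Muscle fibre genes were abundant in every library. The 9 fibre markers summed to 3913358 to 5962737 normalized counts in knockouts and 4873364 to 5728292 in floxed controls. All genes together had 31336090 to 35350499 in knockouts and 33657381 to 35661396 in floxed controls. The fast glycolytic myosin gene Myh4 averaged 2159004 in knockouts and 2357011 in floxed controls. The transcript of the giant sarcomere protein titin took 13.9% of normalized counts in knockout 5 and 8.34% to 9.22% in knockouts 6 to 8, against 11.8% to 14.9% in floxed controls.

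No gene of the set differed between the groups beyond the spread between mice after adjustment over all genes. With limma, 0 of the 9 members tested passed an adjusted p of 0.05, against 0.0% of all 13141 genes tested; their adjusted p ranged from 0.746 to 0.988. At an unadjusted p under 0.05 there were 2, Aldh1l2 and Ppp1r15a, both lower in the knockout, where 3.7% of all tested genes were lower at that level and 6.16% passed in either direction. With voom on recovered reads the members passing were 0 adjusted and 1 unadjusted, Aldh1l2, against 0 adjusted and 697 unadjusted of all 13141 genes in that fit. In 0 of the 9 did the groups separate without overlap, as they did in 2.75% of all tested genes. Of the 9, 6 had lower and 3 higher values in the knockout, with a median difference of -0.13, while 49.4% of all tested genes had lower values and their median difference was 0.0031. The tenth member, Phgdh, lay under the level set for testing, a mean of 10 normalized counts.

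**Figure D1:**
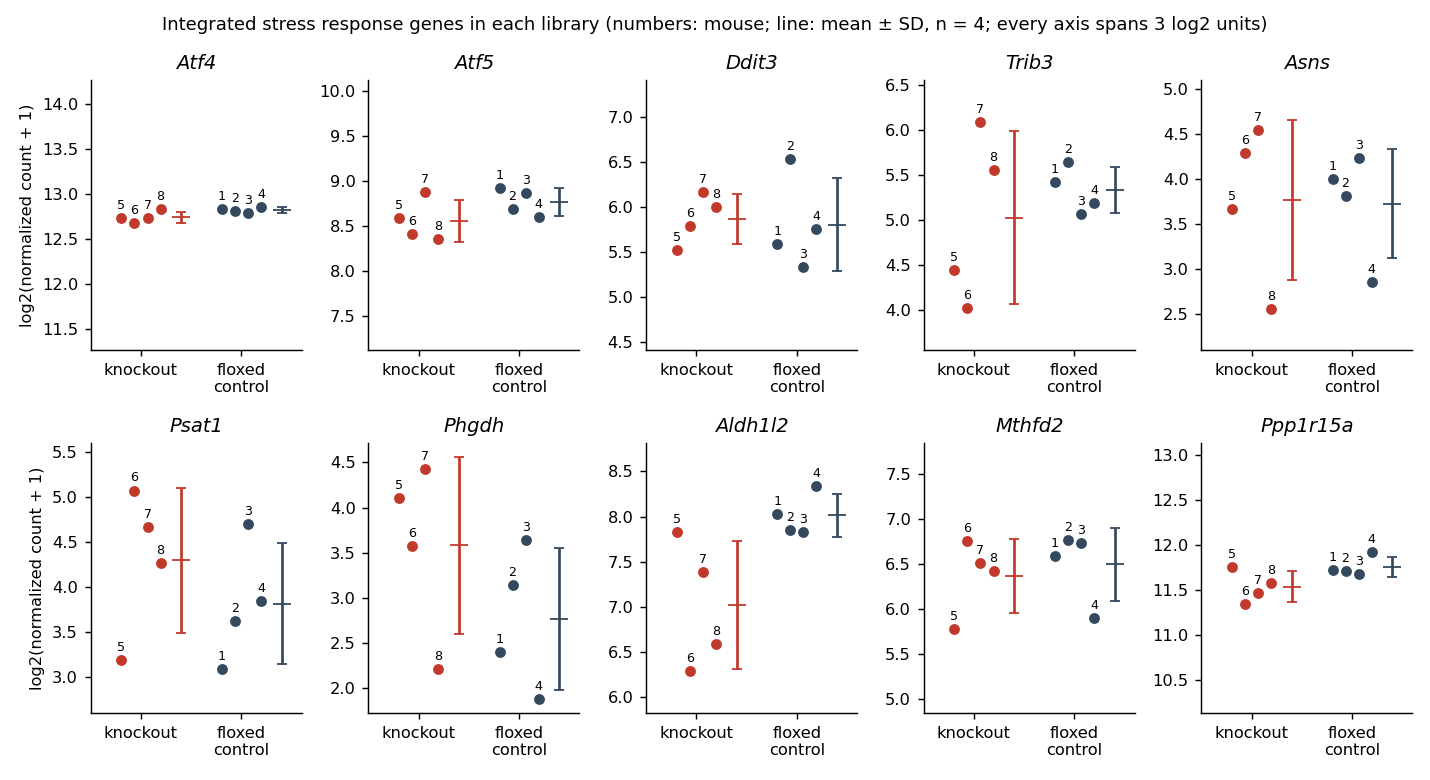
Value of each of the 10 genes in each library, as log2(normalized count + 1), with knockouts 5 to 8 on the left and floxed controls 1 to 4 on the right; bars are the mean ± SD of 4 mice and each axis spans the same length. Atf4 and Ppp1r15a stay in a narrow band, Aldh1l2 has 3 of 4 knockouts below every floxed control, Asns, Psat1 and Phgdh scatter widely within both groups, and Trib3 does so in knockouts.

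The transcription factor gene Atf4 was abundant and nearly the same in all 8 mice. Atf4 (gene ID 11911; chromosome 15, 80255184 to 80257541, plus strand, GRCm38) had 6775, 6581, 6804 and 7264 normalized counts in knockouts 5 to 8, against 7345, 7171, 7065 and 7425 in floxed controls 1 to 4. The first 3 knockouts lay below every floxed control and knockout 8 lay among them. The means were 6856 ± 289 in knockouts and 7251 ± 163 in floxed controls (SD, n = 4 each), a difference of -0.082 (SE 0.0692, 95% interval -0.23 to 0.071, limma adjusted p = 0.81). The highest library had 1.13 times the lowest. The within-group SD of Atf4 was 0.0483 on the log2 scale, and of the 500 tested genes nearest to it in level with Atf4 itself 0.998% had a smaller one, where the median SD was 0.151. Its limma SE and p therefore rest on an SD larger than its own.

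Atf5, a related factor that answers mitochondrial stress, had 383, 340, 470 and 327 normalized counts in knockouts 5 to 8, against 487, 412, 467 and 386 in floxed controls 1 to 4. Knockouts 5, 6 and 8 lay below every floxed control, and knockout 7 lay between floxed controls 3 and 1. The difference was -0.21 (SE 0.134, 95% interval -0.51 to 0.083, limma adjusted p = 0.753). Atf5 (gene ID 107503; chromosome 7, 44812256 to 44816658, minus strand) shares 82 exon bases with Nup62 and Il4i1 on the opposite strand, so their reads cannot be told apart there if counting ignored strand.

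Ddit3, which encodes the pro-death factor CHOP, was low and overlapped fully between the groups. It had 45.1, 54.5, 70.8 and 62.9 normalized counts in knockouts 5 to 8, against 47.2, 92.2, 39.6 and 53.3 in floxed controls 1 to 4. The highest and the lowest of the 8 libraries were both floxed controls. The means were 58.3 ± 11.1 in knockouts and 58.1 ± 23.5 in floxed controls (SD, n = 4 each), a difference of 0.061 (SE 0.275, 95% interval -0.54 to 0.67, limma adjusted p = 0.967). Its sign turned without floxed control 1 (-0.013), floxed control 3 (-0.095) or knockout 7 (-0.038). Ddit3 (gene ID 13198; chromosome 10, 127290774 to 127296288, plus strand) shares 68 exon bases with Mars on the opposite strand. GENCODE lists 2 genes of the symbol Ddit3 there, which share 105 exon bases on the same strand. How the authors' counting treated reads in those bases is not given in the sources used here.

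Of the feedback genes, Ppp1r15a was abundant and slightly lower in 3 knockouts. Ppp1r15a, also called GADD34, guides a phosphatase to eIF2 and so ends the response. It had 3444, 2597, 2832 and 3070 normalized counts in knockouts 5 to 8, against 3377, 3344, 3270 and 3869 in floxed controls 1 to 4. Knockouts 6, 7 and 8 lay below every floxed control, while knockout 5 lay above 3 of the 4. The means were 2986 ± 362 in knockouts and 3465 ± 273 in floxed controls (SD, n = 4 each), a difference of -0.22 (SE 0.0989, 95% interval -0.44 to -0.0012, unadjusted p = 0.0489 and limma adjusted p = 0.746). The titin share was likewise highest in floxed control 4 and knockout 5 and lowest in knockouts 6 to 8, and its part in the result was not tested. Its unadjusted p was under 0.05 in 8 of the 21 alternative fits and not in the other 13, voom and scaling to the same total among them. Ppp1r15a (gene ID 17872) lies on chromosome 7, 45522916 to 45526268, minus strand.

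Trib3, a pseudokinase that binds ATF4 and restrains it, split the knockouts. It had 20.7, 15.2, 67.0 and 46.0 normalized counts in knockouts 5 to 8, against 41.8, 48.7, 32.3 and 35.6 in floxed controls 1 to 4. Knockouts 5 and 6 lay below every floxed control and knockout 7 above every one, so the SD on the log2 scale was 0.958 in knockouts and 0.255 in floxed controls; whether the spreads differ was not tested. The difference was -0.30 (SE 0.421, 95% interval -1.23 to 0.63, limma adjusted p = 0.872). Leaving out knockout 6 gave 0.035, and leaving out knockout 7 gave -0.65. Trib3 (gene ID 228775) lies on chromosome 2, 152337422 to 152344032, minus strand, and its counts rest on 14 to 72 reads per library.

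The amino acid synthesis genes were the scarcest of the set and showed no common direction beyond their scatter. Asns, which makes asparagine, had 11.7, 18.5, 22.3 and 4.84 normalized counts in knockouts 5 to 8, against 15, 13.1, 17.7 and 6.22 in floxed controls 1 to 4. Its lowest values were those of knockout 8 (4 reads) and floxed control 4 (7 reads), while knockouts 6 and 7 lay above every floxed control. The difference was 0.038 (SE 0.513, 95% interval -1.09 to 1.17, limma adjusted p = 0.988) and turned negative without floxed control 4 (-0.25), knockout 6 (-0.14) or knockout 7 (-0.22), while it was 0.44 without knockout 8. Asns (gene ID 27053) lies on chromosome 6, 7675169 to 7693254, minus strand.

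Psat1 and Phgdh, which make serine from a glycolytic intermediate, had higher means in knockouts, with wide intervals. Psat1 (gene ID 107272; chromosome 19, 15904678 to 15947337, minus strand), the aminotransferase of the pathway, had 8.11, 32.7, 24.2 and 18.2 normalized counts in knockouts 5 to 8, against 7.50, 11.3, 25.0 and 13.3 in floxed controls 1 to 4. Knockout 6 lay above every floxed control and the other knockouts among them, with a difference of 0.48 (SE 0.487, 95% interval -0.59 to 1.55, limma adjusted p = 0.836). That difference was 0.22 without knockout 6, 0.24 without floxed control 1, 0.78 without floxed control 3 and 0.85 without knockout 5.

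Phgdh, the dehydrogenase that opens the pathway, was counted with 18, 10, 22 and 3 reads in knockouts 5 to 8, against 4, 9, 11 and 3 in floxed controls 1 to 4. Normalized, these were 16.2, 10.9, 20.5 and 3.63, against 4.29, 7.83, 11.5 and 2.67. Knockouts 5 and 7 lay above every floxed control. In the fit without the filter on low values its difference was 0.81 (SE 0.616, 95% interval -0.50 to 2.13, limma adjusted p = 0.808). Phgdh (gene ID 236539; chromosome 3, 98313170 to 98339990, minus strand) has 21 other annotated genes with a transcript at least 90% identical to it over at least 200 bases, most of them processed pseudogenes, and reads that fit several places can be lost or moved by the authors' counting. Of these, 19 are in the table and 18 had 0 reads in every library, and the Phgdh counts carry that uncertainty.

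Of the mitochondrial folate genes, Aldh1l2 had lower values in 3 of 4 knockouts than in any floxed control, and Mthfd2 had 1 such knockout; neither passed adjustment, and the difference between the genes was not tested. Both enzymes work on folate-bound one-carbon units inside mitochondria; MTHFD2 oxidises methylene-tetrahydrofolate towards formyl-tetrahydrofolate, and ALDH1L2 releases the carbon of that product as carbon dioxide while making NADPH. Aldh1l2 (gene ID 216188; chromosome 10, 83487450 to 83534140, minus strand) had 227, 77.3, 166 and 94.4 normalized counts in knockouts 5 to 8, against 261, 230, 226 and 323 in floxed controls 1 to 4. Knockouts 6, 7 and 8 lay below every floxed control, and knockout 5 lay between floxed controls 3 and 2. The knockout mean of 141 ± 68.9 came to 54.3% of the floxed control mean of 260 ± 44.6 (SD, n = 4 each).

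The Aldh1l2 difference was -0.99 (SE 0.298, 95% interval -1.65 to -0.34), with an unadjusted p of 0.00679 and a limma adjusted p of 0.746. Of all 13141 tested genes, 0.822% had a difference at least as large in size. An unadjusted p at least as small was found for 46 of the 13141, Aldh1l2 included, and none of them passed adjustment. Single libraries moved its size: it was -0.75 without knockout 6 (limma adjusted p = 0.979) and -1.26 without knockout 5 (limma adjusted p = 0.0949). Its unadjusted p stayed under 0.05 in each of the 21 alternative fits. Its within-group SD of 0.53 on the log2 scale was large for its level, since 95.6% of the 500 nearest tested genes with Aldh1l2 itself had a smaller one. Its limma SE and p therefore rest on an SD smaller than its own.

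Part of the Aldh1l2 gene is shared with a neighbour on the other strand. In GENCODE M21, its last exon overlaps the long last exon of D10Wsu102e over 1056 bases, from 83487450 to 83488505 of chromosome 10, and the strand setting of the authors' counting is not given in the sources used here. D10Wsu102e, picked for this overlap, had 972, 593, 466 and 686 normalized counts in knockouts 5 to 8, against 779, 785, 755 and 1072 in floxed controls 1 to 4. Its difference was -0.36 (SE 0.20, limma adjusted p = 0.748), and knockouts 6 to 8 again lay below every floxed control. Aldh1l2 counts came to 23.4%, 13.1%, 35.5% and 13.8% of D10Wsu102e counts in knockouts 5 to 8, and to 33.4%, 29.3%, 30.0% and 30.1% in floxed controls 1 to 4. Knockouts 5, 6 and 8 had a lower ratio than every floxed control, and knockout 7 a higher one. Across the 8 libraries the log2 values of the pair had a Pearson r of 0.64 (exact permutation p = 0.0871, adjusted p = 0.0871 over 4 relations added after the values were seen) and a Spearman rho of 0.83 (exact permutation p = 0.0154, adjusted p = 0.0205). Without floxed control 4 and knockout 7, the libraries farthest from the median of D10Wsu102e, r was 0.80, and after removal of each group's mean it was 0.46. D10Wsu102e and Ppp1r15a, which share no bases, had r = 0.89 (exact permutation p = 0.00556, adjusted p = 0.00804) and rho = 0.95 (exact permutation p = 0.00114, adjusted p = 0.00228), with r = 0.89 without the same 2 libraries and 0.85 after removal of group means. Knockouts 6 to 8 have the lowest values of all 3 genes, and how far the relations rest on that split was not tested. The 4 relations were picked after the values were seen, and the adjusted p does not correct for that choice. For the titin share, the other 2 relations, pooled r with Aldh1l2 was 0.85 (exact permutation p = 0.00603, adjusted p = 0.00804) and rho 0.81 (exact permutation p = 0.0218, adjusted p = 0.0218). With Ppp1r15a r was 0.93 (exact permutation p = 0.000273, adjusted p = 0.00109) and rho 0.95 (exact permutation p = 0.00114, adjusted p = 0.00228). The same split leaves a gap with no titin share between 9.22% and 11.8%, so these pooled values cannot be told apart from the split. After removal of group means r was 0.73 with Aldh1l2 and 0.89 with Ppp1r15a. Within the knockouts, knockout 5 (13.9%) still stands apart from knockouts 6 to 8 (8.34% to 9.22%). The r values after removal of group means therefore keep part of the split, and no p was computed for them.

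**Figure D2:**
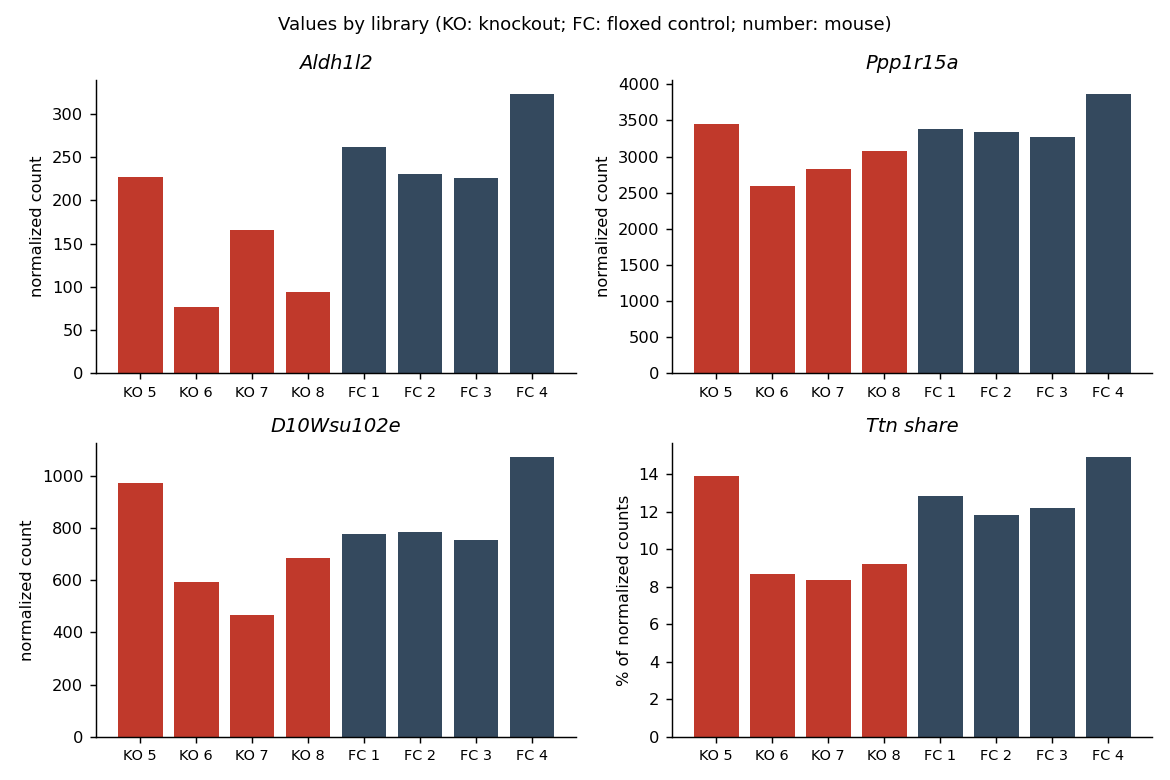
Normalized counts of Aldh1l2, Ppp1r15a and D10Wsu102e, and the share of normalized counts taken by titin (Ttn), as bars per library with knockouts 5 to 8 left of floxed controls 1 to 4. In all 4 panels floxed control 4 has the highest bar and knockouts 6 to 8 lie below every floxed control, while knockout 5 lies within the floxed control range.

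Mthfd2 (gene ID 17768; chromosome 6, 83305691 to 83325908, minus strand) had 54.1, 107, 90.3 and 84.7 normalized counts in knockouts 5 to 8, against 95.4, 108, 105 and 58.7 in floxed controls 1 to 4. Its lowest values were those of knockout 5 and floxed control 4, the libraries with the highest titin share, and all others lay between 84.7 and 108. The difference was -0.13 (SE 0.257, 95% interval -0.70 to 0.44, limma adjusted p = 0.914). Leaving out knockout 5 gave 0.065, and leaving out floxed control 4 gave -0.33. Aldh1l2 and Ppp1r15a had their group's highest value in these same libraries.

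**Figure D3:**
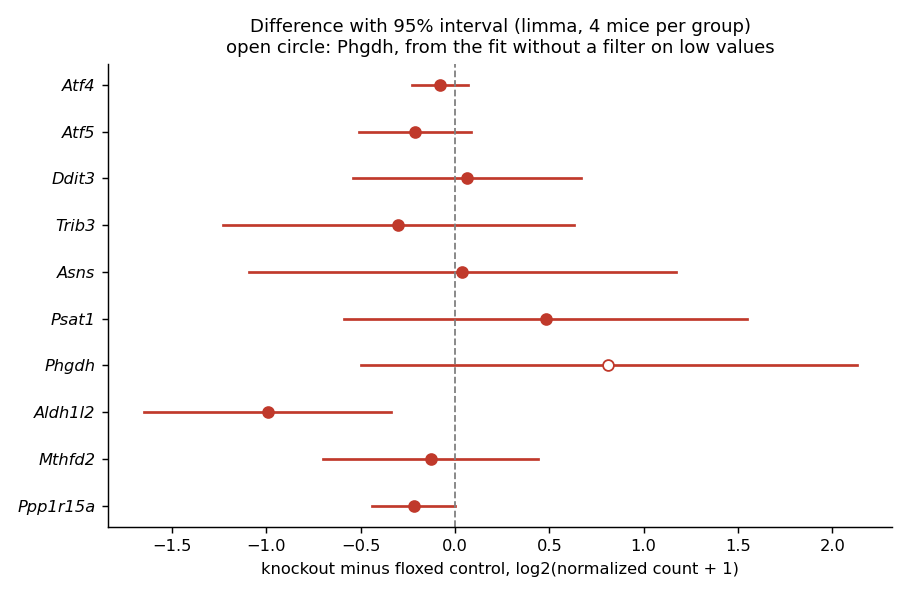
Difference between knockout and floxed control for each gene on the log2(normalized count + 1) scale (point) with its 95% interval from the limma fit (line); Phgdh comes from the fit without a filter on low values. Only the intervals of Aldh1l2 (-1.65 to -0.34) and Ppp1r15a (-0.44 to -0.0012) lie below 0, before any adjustment.

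Set per length, the genes spanned about the whole range of expression in the muscle. Levels were taken as normalized counts per kb of merged GENCODE M21 exons, which counts retained introns of minor transcripts as exon and so understates the level of some genes. Atf4 had 2908 ± 123 per kb in knockouts and 3075 ± 69.3 in floxed controls (SD, n = 4 each), a level per kb above that of 98.0% of the 12705 tested genes with a length. Ppp1r15a followed at 1017 ± 123 in knockouts and 1180 ± 93.0 in floxed controls, above 94.3% of genes, and Atf5 at 191 ± 32.5 in knockouts and 220 ± 23.6 in floxed controls, above 74.8%. These 3 genes did not overlap each other in any library.

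Below them, Ddit3, Aldh1l2, Mthfd2 and Trib3 formed a middle group whose per-kb ranges overlapped. Over both groups their means per kb were 34.0, 26.7, 25.2 and 18.1, above 24.2% to 35.4% of genes, and the ranges in knockouts were 26.3 to 41.3, 10.3 to 30.3, 15.5 to 30.6 and 7.18 to 31.5. Asns, Psat1 and Phgdh came last, with means per kb of 5.00, 4.12 and 3.90, above 5.19% to 7.52% of genes, and overlapped one another throughout. Atf4 was counted with 6002 to 8354 reads per library, and the serine and asparagine genes with 3 to 30.

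**Figure D4:**
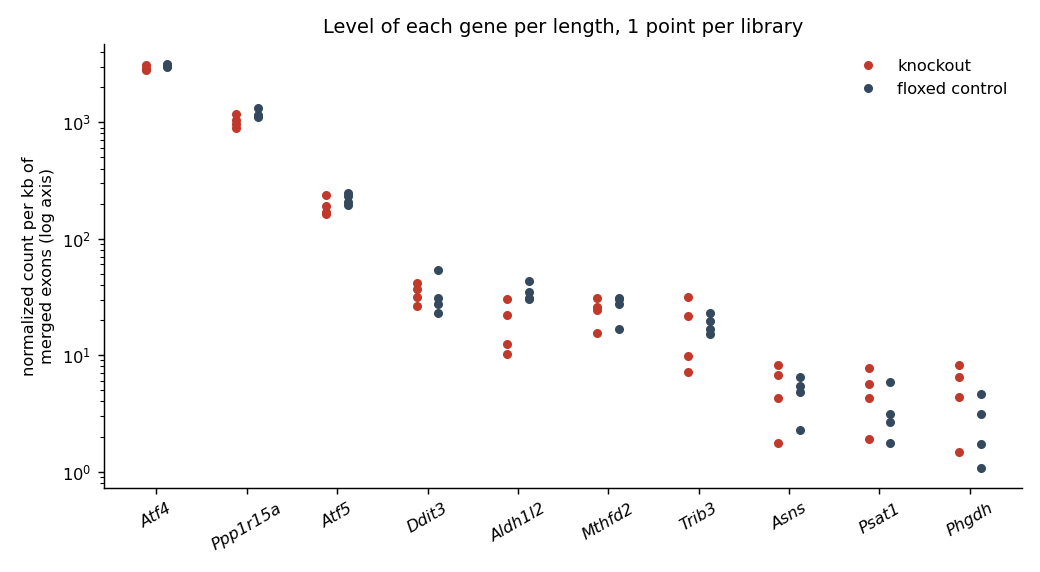
Level of each gene as normalized counts per kb of merged exons on a log axis, 1 point per library, with knockouts left of floxed controls. Atf4, Ppp1r15a and Atf5 stand apart at the top, 4 genes share the middle, and Asns, Psat1 and Phgdh lie lowest, all under 10 per kb.

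From mouse to mouse the 9 tested genes did not vary as a block. Of their 36 pairs, 20 had a positive Pearson r over the 8 libraries, the median r was 0.11, and 0 passed an adjusted p of 0.05, while 3 had an unadjusted exact permutation p under 0.05. By this r the closest pair was Aldh1l2 and Ppp1r15a, with r = 0.86 (exact permutation p = 0.00583, adjusted p = 0.21) and rho = 0.90 (exact permutation p = 0.00456, adjusted p = 0.164). Without knockouts 6 and 8, the libraries farthest from the median of Aldh1l2, r was 0.96, and after removal of each group's mean it was 0.74. That removal gave stronger negative r for Mthfd2 with Ppp1r15a (-0.95), Atf4 with Asns (-0.84) and Aldh1l2 with Mthfd2 (-0.77), which were not tested. Mthfd2 and Ppp1r15a had r = -0.59 over all 8 libraries, and 0.05 without floxed control 4 and knockout 5. Scaled to the same total in every library Aldh1l2 and Ppp1r15a passed the adjusted threshold (r = 0.91, adjusted p = 0.0116), as they did without knockout 8 (r = 0.94, adjusted p = 0.0321), where Atf4 and Aldh1l2 passed too (r = 0.84, adjusted p = 0.0321). For Atf4 and Aldh1l2, r over all 8 libraries was 0.54, and 0.06 after removal of group means.

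The other 2 pairs under 0.05 both held Ppp1r15a. With Atf4 it had r = 0.73 (exact permutation p = 0.0388, adjusted p = 0.531) and rho = 0.57 (exact permutation p = 0.151, adjusted p = 0.625), and r was 0.82 without knockouts 5 and 6 and 0.5 after removal of group means. With Psat1 it had r = -0.72 (exact permutation p = 0.0442, adjusted p = 0.531) and rho = -0.76 (exact permutation p = 0.0368, adjusted p = 0.50), and r was -0.60 without floxed control 1 and knockout 6 and -0.69 after removal of group means. All pairs share the libraries and their scaling.

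**Figure D5:**
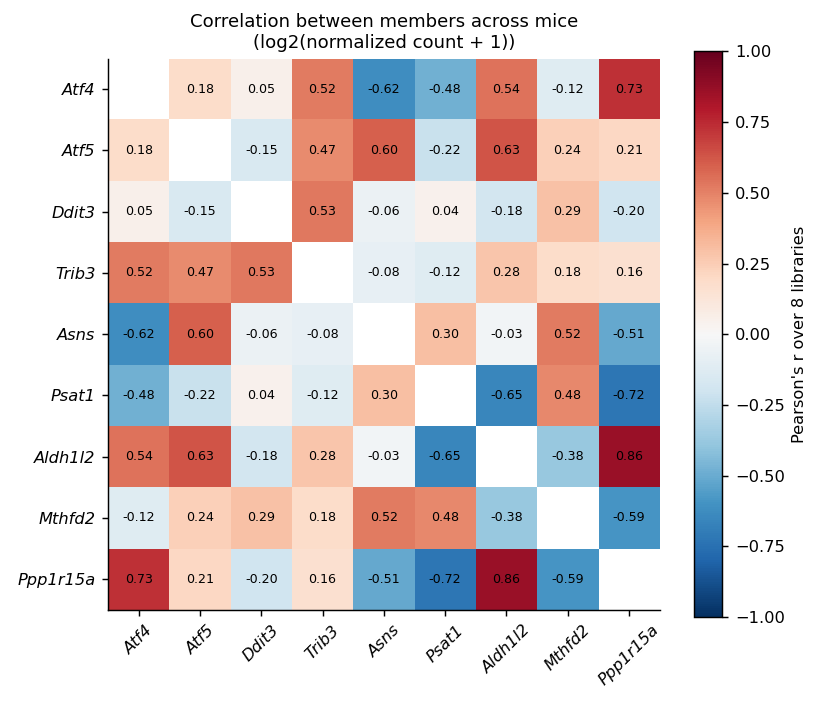
Pearson's r over the 8 libraries for each pair of the 9 tested genes, on log2(normalized count + 1), from blue (-1) to red (1). Positive and negative cells are mixed, with the strongest positive cell for Aldh1l2 and Ppp1r15a (0.86).

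Genes around the set were read the same way, from 5 lists, and 0 genes of any list passed the limma adjusted p of 0.05. Of 28 other genes linked to ATF4, 24 were tested, 8 with higher and 16 with lower values in knockouts, and the median difference was -0.099. Those with the smallest p were Cebpb, a stress and inflammation factor that pairs with ATF4, at -0.31 (SE 0.152), and Cbs, an enzyme of cysteine synthesis, at 0.55 (SE 0.369), with limma adjusted p of 0.746 and 0.765. Fgf21, the stress hormone gene, had 0 reads in all 8 libraries, and Gdf15 averaged 0.723 normalized counts in knockouts and 0.222 in floxed controls, so neither muscle-secreted marker was detectable at a usable level.

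Upstream, the 18 tested genes of eIF2 kinases and eIF2 control had 8 higher and 10 lower values, with a median difference of -0.011; a 19th entry, Dele1, matched no row by that symbol. Impact, an inhibitor of the amino acid sensor kinase GCN2, was at -0.45 (SE 0.159), with 2035, 1299, 1367 and 1560 normalized counts in knockouts 5 to 8 against 1875, 1740, 2310 and 2582 in floxed controls 1 to 4. Gcn1l1, which activates the same kinase, was at -0.22 (SE 0.0931). For both, knockouts 6 to 8 lay below every floxed control and knockout 5 did not. Both were named for having the smallest p of the list. In limma their unadjusted p was under 0.05 (0.0171 and 0.0377) and their adjusted p was 0.746. At that unadjusted level 3.7% of all tested genes were lower in knockouts. Of the kinase genes, Eif2ak1 (haem sensor) was at -0.14 (SE 0.0701), Eif2ak2 (double-stranded RNA sensor) at 0.26 (SE 0.193), Eif2ak3 (endoplasmic reticulum sensor) at 0.099 (SE 0.227) and Eif2ak4 (amino acid sensor) at -0.27 (SE 0.20).

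Other enzymes of serine and folate one-carbon metabolism had 10 higher and 6 lower values among 16 tested of 20, with a median difference of 0.029. Shmt2, which moves the carbon of serine to folate in mitochondria, was at -0.20 (SE 0.107), and its cytosolic twin Shmt1 was at 0.33 (SE 0.189). Chaperones and regulators of the endoplasmic reticulum had 10 higher and 10 lower values among 20, with a median of 0.011. There the ubiquitin ligase gene Syvn1 was at -0.43 (SE 0.182, unadjusted p = 0.0379 in limma). Edem1, which marks misfolded glycoproteins for removal, was at -0.33 (SE 0.179). For both, knockouts 6 to 8 lay below every floxed control and knockout 5 did not. Of all tested genes, 3.7% were lower at an unadjusted p under 0.05 in limma. Mitochondrial chaperones and proteases had 11 higher and 3 lower values among 14, with a median of 0.086. Those with the smallest p were Hspd1, the mitochondrial HSP60 gene, at 0.28 (SE 0.131) and the prohibitin gene Phb at 0.28 (SE 0.142). Both lay above every floxed control in knockouts 6 to 8 and not in knockout 5. The summed level of this list was lowest in knockout 5 (40827) and floxed control 4 (40254), the libraries with the highest titin share. It was 50103 to 51114 in knockouts 6 to 8 and 44539 to 45594 in floxed controls 1 to 3. Every one of the 6 genes named here had a limma adjusted p of 0.746 or 0.748.

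Marker genes of other cells were also read, because the tissue was not sorted, and in bulk tissue fewer cells of a type and less RNA per cell cannot be told apart. All 7 macrophage markers had higher values in knockouts, with a summed level of 1975 to 3635 normalized counts in knockouts and 1206 to 2165 in floxed controls, and 6 of 7 endothelial markers did, at 8400 to 9969 in knockouts, all above the 7165 to 8359 of floxed controls. For each of these lists 4 markers were higher at an unadjusted p under 0.05 in limma, as were 2.47% of all tested genes, and 0 passed adjustment. The fibroblast sum ran from 29643 to 69125 in knockouts and from 30581 to 49447 in floxed controls. In knockouts the adipocyte sum was 539 to 1859, the erythroid sum 1899 to 3178, the Schwann cell sum 689 to 1046 and the satellite cell sum 24.2 to 73.9. In floxed controls these sums were 219 to 2138, 1120 to 5357, 651 to 1011 and 26.1 to 76.1, so all 4 overlapped. No marker of these lists was at 0 in every library, and the part of other cells in the values of the stress genes was not tested.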

How the data were processed

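White quadriceps RNA of 8 mice was sequenced, 1 library each, from stranded TruSeq libraries per the labels' protocols. Tools named in the submitters' processing notes, with no version, are STAR, HTSeq, DESeq2, cutadapt and FastQC, and the build is GRCm38. Annotation release, strand setting and any filter were not given in the sources used here. Each value as deposited by the authors is log2(n + 1), n being reads over a factor for that library and not scaled by gene length: 2 to the power of the value, minus 1, fell on multiples of 1 step per library, and 100% of values up to 200 reads lay within 0.1 of a whole read. Columns were matched by mouse number, with 0 columns left over.

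Genes averaging 10 or more normalized counts (13141 of 54091 rows) were tested with limma 3.58.1 in R 4.3.3 (trended eBayes, Benjamini-Hochberg, threshold 0.05), after a test on simulated data. The pseudocount of 1 is that of the deposited values and understates changes of low genes. Exact permutation tests over pairings were two-sided. Named genes are the 10 members, Acot2 and, from each list, the 2 tested genes with the smallest p; the 4 kinase genes, Fgf21, Gdf15, Myh4, Ttn, Dele1 and D10Wsu102e were named after their values were seen. The members and lists were chosen with earlier results of these data known. Similar transcripts were found with minimap2 2.31. Alternatives covered pseudocount, filter, scaling, fit, covariate and single libraries. Counting error is small beside the spread between mice, except for genes with few reads.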

Additional observations from a re-analysis of the deposited data

How the results depend on the processing

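Over 21 alternatives, 0 of the tested members passed an adjusted p of 0.05, and the members' median difference stayed between -0.252 and -0.072. The number of called genes was 1, Acot2 (limma adjusted p = 0.00421), without the filter on low values and 0 in the others. Of 186 member values, 176 kept their sign and their side of the threshold and 10 turned sign. Leaving out 1 library gave ranges of -0.095 to 0.30 for Ddit3, -0.65 to 0.035 for Trib3, -0.25 to 0.44 for Asns and -0.33 to 0.065 for Mthfd2; Asns was also -0.057 with array weights and -0.22 without floxed control 4 and knockout 5 together, an alternative added after the data were seen, as was the block. Aldh1l2 ranged from -1.26 to -0.75 and Ppp1r15a from -0.29 to -0.15. The number of correlated pairs was 1 with the same total in every library and 0 to 2 when 1 library was left out; the cause was not tested. At an unadjusted p under 0.05 the genes numbered 367 without floxed control 4 and 2200 without knockout 5. The replicate numbers of the titles run from 1 to 8 and pair no mice. Columns with the same number in the file correlated between -0.162 and 0.281, and 2 of 4 knockouts correlated best with their own number. The highest correlation between a knockout and a floxed control was 0.401, for knockout 5 and floxed control 4, whose column numbers differ. With the column number as a replicate block 0 genes were called, as without it (931 against 810 unadjusted), and the members' median was -0.13. Count tests with a negative binomial model were not run, although whole reads could be recovered from the deposited log2 values. The fit with voom on recovered reads stood in for them. Depth limits Asns, Psat1 and Phgdh, with 3 to 30 reads per library.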
